A study of Mus musculus with 40 samples.

Results

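The comparison is between 6 of the 40 arrays of the series: 3 arrays labelled Nanog episomal and 3 labelled MG1.19, chosen by their titles, with 1 array per line in each of 3 media. MG1.19 is a male mouse embryonic stem (ES) cell line of strain 129Sv that makes the polyoma virus large T antigen, a protein that lets plasmids with a polyoma origin persist outside the chromosomes. The arrays labelled Nanog episomal come from MG1.19 cells given the Nanog cDNA in such an episomal vector (pPyCAGIP in the study's methods, pPYFloxed in the labels), selected with puromycin and expanded from a picked colony, so that the clone and its selection cannot be told apart from the transgene; MG1.19 was at passage 5 and its labels name no transgene. Both lines were taken through feeder-free passages on gelatin and then kept for 3 days in complete medium with leukemia inhibitory factor (LIF+), in the same medium without LIF (LIF-), or with LIF and 1 µM retinoic acid (RA). A clone number stands in the title of the LIF+ clone array alone. The submitters' design text gives a different parent for the clones, and the pairing used here follows the strain labels and the methods.

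NANOG is a homeodomain transcription factor of the inner cell mass and of ES cells, where it works with POU5F1 and SOX2 to hold cells in a self-renewing state. Overexpressed Nanog is known to let ES cells renew without LIF and to oppose primitive endoderm, the extraembryonic layer that forms beside the epiblast. LIF acts through STAT3 and targets such as Socs3, and RA, through its nuclear receptors, drives differentiation and induces its own degrading enzyme Cyp26a1. The question here was which genes lay apart between the clone and MG1.19 in the same direction in all 3 media.

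On each array the sample was labelled with Cy3 and a pooled mouse reference RNA with Cy5, so a level below is log2(Cy3/Cy5) and a difference is the level of the clone minus that of MG1.19 in the same medium. Over the 6 arrays the median Cy3 signal was 566 to 641 above local backgrounds of 380 to 387, and 1.78% to 5.07% of gene probes were dim, meaning under 95% of the negative control spots ranked by signal (the dim limit). Each gene with a symbol was read by its brightest probe, and each probe without a symbol was counted as a gene of its own. This gave 37618 genes with a value on all 6 arrays, 13558 of them with a gene symbol. The other 24060 are single probes, some of which read the same transcript, so shares of all genes are partly shares of probes. The LIF+ arrays stood apart. The clone and MG1.19 correlated across probes with r = 0.878 in LIF+, against 0.962 in LIF- and 0.965 in RA, and the LIF+ clone array was most like the LIF+ array of another Nanog clone (r = 0.884). Counts of the wider set and of the gene lists are therefore also given without the LIF+ pair. All 7 ES cell markers (Pou5f1, Sox2, Zfp42, Tdgf1, Dppa5a, Fgf4 and Utf1) read above the dim limit on all 6 arrays. So did 4 of 4 trophectoderm, 4 of 4 neural and 6 of 7 feeder fibroblast markers, so this limit does not tell cell types apart. Without LIF, Socs3 was lower by 2.65 in the clone and by 2.85 in MG1.19 on the log2 scale, and with RA the Cyp26a1 level was higher by 3.03 and by 2.52, so the media labels match the arrays.

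Nanog itself was not higher on the arrays labelled as Nanog clone. Its only probe read 1.28 in LIF+, 1.47 in LIF- and 0.66 in RA in the clone, against 1.91, 1.93 and 1.26 in MG1.19. The clone was the lower of the pair in 3 of 3 media, with differences of -0.63, -0.46 and -0.60 (mean -0.57 ± 0.09 SD, n = 3 pairs). A second clone, with an integrated Nanog transgene, was set against ES 129.3, the line with the same strain label (129SvEv-Tac); the methods name MC1 as its parent and the design text MG1.19, so a difference of line cannot be told apart from the transgene there. In that clone and ES 129.3 the same probe read 2.48, 2.00 and 2.49 against 1.61, 1.83 and 1.27, higher in 3 of 3 media. Where in the Nanog transcript the probe lies, and whether the episomal RNA carries that stretch, could not be placed with the references used here, so the probe does not check the overexpression, which the methods state was measured by PCR. The clone is therefore called below by its label, episomal, and every direction rests on that label.

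**Figure D1:**
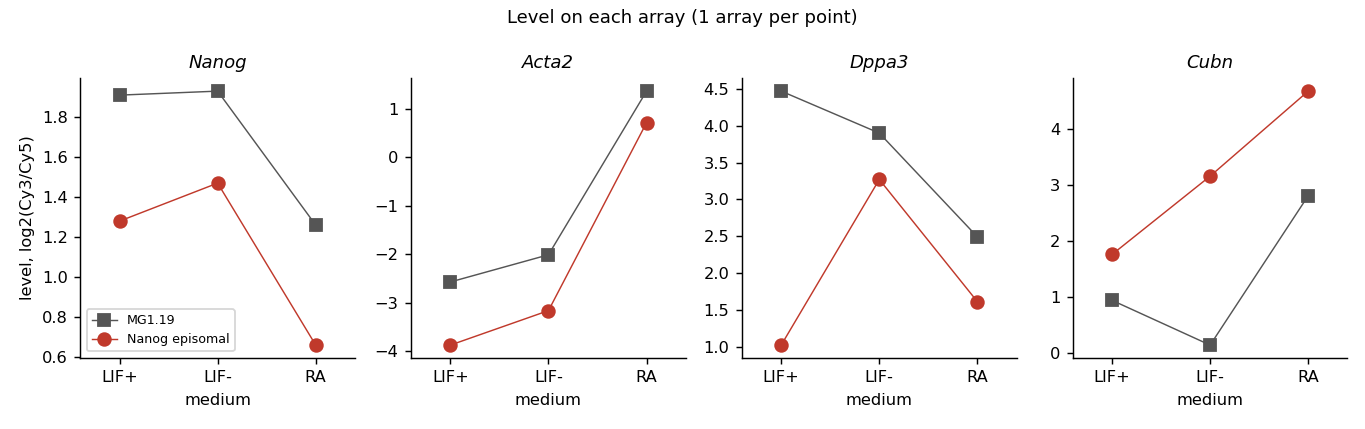
Level, log2(Cy3/Cy5), of Nanog, Acta2, Dppa3 and Cubn on each of the 6 arrays, 1 array per point, for MG1.19 (squares) and the arrays labelled Nanog episomal (circles) in LIF+, LIF- and RA medium. The clone lay below MG1.19 in all 3 media for Nanog, Acta2 and Dppa3 and above it for Cubn, and the largest gap for Dppa3 was in LIF+.

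Few genes held a difference of size across the media. Only 11 of 37618 genes were at least 1.5-fold (0.58 on the log2 scale) apart in the same direction in each medium, 3 of them higher in the clone (0.00797% of the genes) and 8 lower (0.0213%), and at 2-fold there were 0. With the scanner software's processed signals, and with the authors' normalized values, 8 higher and 17 lower genes met the rule, and with Cy3 alone 16 lower ones did. Without the LIF+ pair 18 higher and 41 lower genes met it in the other media. These percentages are the rule's own yield and are given as a description. In the paired fit with limma, 0 genes passed an adjusted p of 0.05 with 1.5-fold, the 11 genes had an adjusted p of 0.588 each, and 3110 genes had an unadjusted p under 0.05, 2087 of them lower in the clone. In LIF+, 2925 genes were at least 1.5-fold apart (1180 higher, 1745 lower), against 489 in LIF- (195 and 294) and 311 in RA (93 and 218). At 2-fold the balance in LIF+ was the other way, with 456 higher and 245 lower. Across genes, which are not independent replicates, the differences correlated with r of 0.20 between LIF+ and LIF-, 0.17 between LIF+ and RA and 0.29 between LIF- and RA. In the integrated clone the same 3 correlations were 0.74, 0.69 and 0.65.

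**Figure D2:**
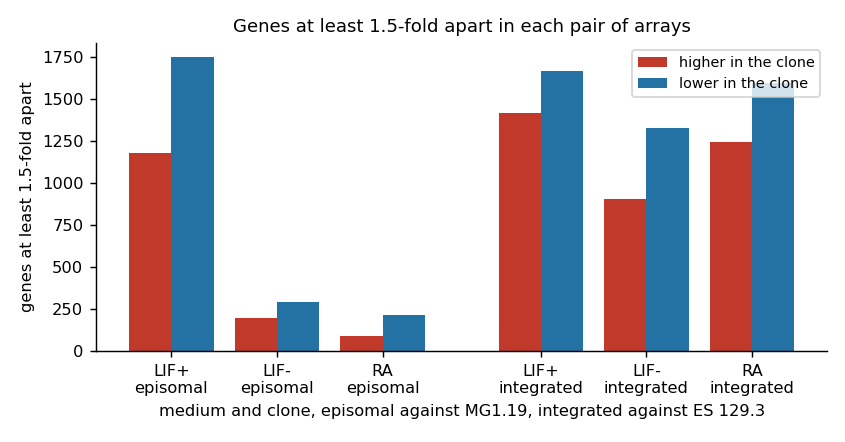
Number of genes at least 1.5-fold higher (red) or lower (blue) in a clone than in the line it is set against, for each medium, with 1 pair of arrays per medium. The episomal clone went from 2925 genes in LIF+ to 489 in LIF- and 311 in RA, and the integrated clone from 3079 to 2229 and 2834.

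Of the 3 genes higher in the clone, Cubn and Kdelr3 have a symbol. Cubn encodes cubilin, an endocytic receptor of visceral endoderm and kidney, and its level was 1.76, 3.16 and 4.68 in the clone in LIF+, LIF- and RA, against 0.94, 0.14 and 2.81 in MG1.19. The clone was higher in every medium, by 0.82, 3.02 and 1.87 (mean 1.90 ± 1.10 SD, n = 3). In bulk RNA, more cells of a type and more RNA per cell cannot be told apart. Kdelr3, a receptor that returns proteins to the endoplasmic reticulum, read 0.03, -1.62 and 0.12 in the clone and -1.73, -2.54 and -1.0 in MG1.19. Its differences were 1.75, 0.92 and 1.12. A transcript known here only by its accession, XM_132396.4, read 3.48, 0.14 and 0.57 in the clone, while the 3 MG1.19 arrays lay between -1.14 and -0.72. The difference of this transcript was 4.63 in LIF+ and 0.95 and 1.29 in the other media, so most of its mean of 2.29 comes from the LIF+ clone array.

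Among the 8 lower genes, Acta2, Dppa3, Hs6st2, Magohb and Rpl22l1 have a symbol. Acta2, the smooth muscle actin, read -3.87, -3.16 and 0.71 in the clone and -2.57, -2.01 and 1.36 in MG1.19. The clone was lower by 1.30, 1.15 and 0.65, while in both lines the level on RA was far above that in LIF+. Dppa3, a protein of the oocyte, germ cells and naive ES cells that guards DNA methylation marks, read 1.02, 3.27 and 1.61 in the clone against 4.47, 3.90 and 2.49 in MG1.19. Its difference was -3.45 in LIF+, the lowest of any gene with a symbol in that medium, and -0.63 and -0.88 in LIF- and RA. Hs6st2, which adds sulfate to heparan sulfate chains, had the most even differences among the lower genes with a symbol, -0.83, -0.69 and -0.67 (mean -0.73 ± 0.09 SD, n = 3). Magohb, a subunit of the exon junction complex, was lower by 1.83, 0.86 and 0.89, and Rpl22l1, a paralog of a ribosomal protein, by 1.12, 0.64 and 0.62. The other probe of Rpl22l1 differed by -1.05, -0.61 and -0.44, under 1.5-fold on RA, so its place among the 11 depends on the probe. The remaining members are the unnamed transcripts CA881129 (differences -0.72, -0.99 and -0.77), BC033443.1 (-1.68, -0.64 and -0.86) and AK076687 (-1.48, -0.61 and -1.03). In 7 of the 8 the largest difference was that in LIF+, CA881129 being the exception. All 11 genes read above the dim limit on all 6 arrays, but that limit is low. The lowest Cy3 signal was 443 for BC033443.1, 444 for Hs6st2, 454 for AK076687 and 494 for Dppa3, against backgrounds of 380 to 387. For BC033443.1 and AK076687 the highest was 620 and 688, so their differences rest on faint signals.

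The limit of 1.5-fold falls within a run of close values. Rpl22l1, Dppa3 and Acta2 lay just inside on the lower side, and Nr2f1, an orphan nuclear receptor (-0.56, -1.07 and -0.90), Mir17hg, the host transcript of a microRNA cluster (-0.57, -0.90 and -0.57), and Igfbp3 (-1.93, -0.81 and -0.57) just outside. On the higher side Cubn and Kdelr3 were the only genes with a symbol inside. Just outside lay Sox7 (0.53, 0.54 and 0.90), an endoderm transcription factor, Tbx3 (0.74, 1.40 and 0.47), a transcription factor that supports self-renewal, and AK141205 (1.71, 0.51 and 0.45).

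The integrated clone and ES 129.3 share no array with the comparison and did not choose the genes. In that pair of lines, where 1.7% of 37684 genes were called higher and 2.42% lower by limma (adjusted p of 0.05 and 1.5-fold), 1 of the 3 higher genes was called higher and 5 of the 8 lower genes were called lower. Acta2 fell there by 3.12, 2.56 and 3.53 in LIF+, LIF- and RA (limma, adjusted p = 0.00786). Hs6st2 fell by 2.38, 1.84 and 2.98 (limma, adjusted p = 0.0131). On average over the media, Magohb fell by 1.66 (limma, adjusted p = 0.00786), Dppa3 by 1.66 (adjusted p = 0.0302) and Rpl22l1 by 1.40 (adjusted p = 0.00507). Cubn rose by 1.18, 1.84 and 1.99 (limma, adjusted p = 0.0154). These 6 genes with a symbol thus moved in the integrated clone in the direction that they had in the episomal one. Kdelr3 did not: its differences there were 0.73, -0.73 and -0.14 (adjusted p = 0.956, limma). BC033443.1 was lower by 0.35 (adjusted p = 0.0255), under the 1.5-fold limit, and the others had means of 0.24 (XM_132396.4), -0.07 (CA881129) and 0.43 (AK076687) with adjusted p of 0.245 to 0.513. Without its LIF+ pair, 428 genes in place of 1554 were called in the integrated clone, 3 of the 11 among them.

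**Figure D3:**
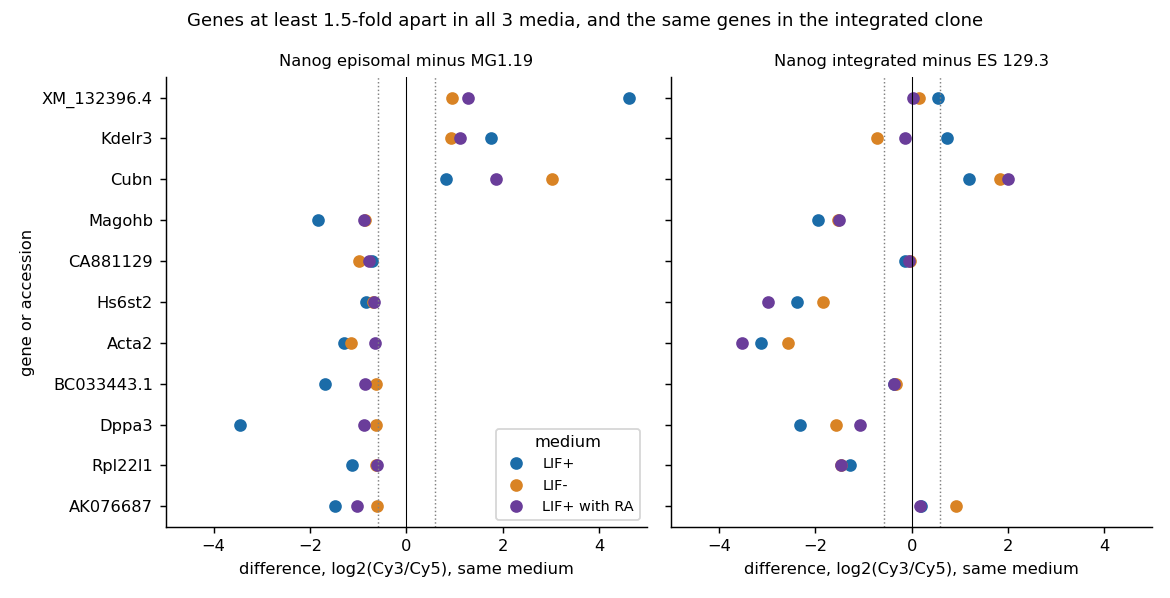
Difference in log2(Cy3/Cy5) between a clone and the line it is set against (MG1.19 or ES 129.3) in the same medium (color) for the 11 genes at least 1.5-fold apart in all 3 media in the episomal clone (left) and for the same genes in the integrated clone (right), 1 pair of arrays per point. Dotted lines mark 1.5-fold. Cubn lay to the right in both panels, and Magohb, Hs6st2, Acta2, Dppa3 and Rpl22l1 to the left in both, with Acta2 and Hs6st2 farther left in the integrated clone.

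For Acta2 the integrated difference was the larger in all 3 media. The episomal difference minus the integrated difference was 2.04, and for CA881129 it was -0.75. The episomal values in these figures also chose the genes, so they are given as a description. Over all 37587 genes tested, 0.359% were called with the higher value in the episomal clone and 0.474% with the lower. Among the genes with a symbol and the lowest adjusted p, 9 are given here, with episomal means between -0.47 and 0.24. Their integrated means were -2.32 for Inhba, -2.65 for S100a4, -2.60 for S100a6, -1.75 for Lox and -0.78 for Msmo1. The other 4, Manba, Uba1y, Arg2 and Defa3, had integrated means of 1.31 to 1.68. Lox, an enzyme that crosslinks collagen, had an episomal mean of -0.18.

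In the late arrays, 18 arrays of ZHBTc4 ES cells in which Pou5f1 is shut off by tetracycline, 120 hr was compared with 0 hr with 3 replicates each. Here 11.7% of 17335 linked genes were called higher and 7.9% lower. Of the 7 genes with a tested probe of identical sequence, Dppa3 fell from 1.24, 1.35 and 1.62 at 0 hr to 0.32, 0.23 and 0.22 at 120 hr (limma, adjusted p = 8.3e-10), and its replicates do not overlap. Kdelr3 fell by 1.12 (adjusted p = 1.04e-10, limma) and Magohb by 0.61 (adjusted p = 3.83e-05). Acta2 rose by 1.45 (limma, adjusted p = 4.9e-09), with levels of -3.31, -3.31 and -3.75 at 0 hr and -1.92, -1.95 and -2.15 at 120 hr. Hs6st2, Cubn and BC033443.1 differed by 0.41, -0.21 and -0.46, under 1.5-fold.

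Several of the 11 genes also varied with the medium in all 4 lines. With RA against LIF+, the Acta2 level was higher by 2.24 in the integrated clone and by 2.65 in ES 129.3, as it was by 4.59 and 3.93 in the episomal clone and MG1.19. Hs6st2 was higher on RA in all 4 lines, by 0.93 to 2.54. Cubn was higher on RA in all 4 lines too, by 1.51 in the integrated clone, 0.70 in ES 129.3, 2.92 in the episomal clone and 1.87 in MG1.19. Without LIF, Dppa3 was lower by 1.00 in ES 129.3, by 0.57 in MG1.19 and by 0.25 in the integrated clone, while in the episomal clone it was higher by 2.25. That 2.25 is counted from the LIF+ clone array, where Dppa3 read 1.02. These are single arrays per condition and carry no test.

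A wider set was formed after the values were seen: genes on the same side in all 3 media with a mean of at least 1.5-fold. It holds 155 higher genes (0.412%) and 153 lower genes (0.407%). In the integrated clone, 46 of 154 measured higher genes were called higher (29.9%) and 0 lower, and 53 of 153 lower genes were called lower (34.6%) and 3 higher, against 1.7% and 2.42% of all genes. Many of the higher members are probes without a symbol with close to the same differences in LIF+, LIF- and RA. Examples are 2.05, 0.34 and 0.19 on 1 probe and 2.05, 0.26 and 0.22 on another. Some of these probes read the same transcript, so the 29.9% may count 1 signal many times. Without the LIF+ pair the like sets hold 49 higher and 137 lower genes, of which 7 were called higher and 0 lower, and 17 lower and 9 higher, in the integrated clone. Srgn, the core protein of a secretory granule proteoglycan, was higher in the clone by 0.20, 2.33 and 2.45 in LIF+, LIF- and RA and rose by 1.93 in the integrated clone (limma, adjusted p = 0.0143). It is the 1 gene that the paired fit called in the episomal clone once the LIF+ pair was left out. Nrp2, a semaphorin and VEGF receptor, was lower by 3.25 in LIF+ and by 0.54 and 0.55 in LIF- and RA, and fell by 1.96 in the integrated clone (adjusted p = 0.012, limma). Trh, the precursor of thyrotropin-releasing hormone, was lower by 1.73, 0.98 and 0.43, and fell by 2.04 there (limma, adjusted p = 0.0371).

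By sign alone, 13% of all genes were higher in the clone in 3 of 3 media and 19.8% lower. The gene lists hold only genes with a symbol, and of those 13558 genes 11% were higher and 23.5% lower, which is the background used for the lists. Without the LIF+ pair, 28.7% of the genes with a symbol were higher and 30.1% lower in both LIF- and RA. Among 24 measured members of a list of actin cytoskeleton genes and targets of serum response factor (SRF), a factor that reads the state of actin and drives contractile genes, 15 were lower in 3 of 3 media (62.5%) and 0 higher. Their median difference was -0.66 in LIF+, -0.36 in LIF- and -0.03 in RA, against -0.11, -0.01 and 0.00 for genes with a symbol, so the lower levels lay mainly outside RA. Members lower by at least 0.1 in each medium numbered 9 of 24 (37.5%), against 7.17% of genes with a symbol. Tagln, an actin-binding protein of smooth muscle, read -2.08, 0.01 and 2.55 in the clone and -0.36, 0.77 and 2.67 in MG1.19. Cnn1, another smooth muscle protein, was lower by 0.91, 0.55 and 0.70. Thbs1, a secreted matrix glycoprotein, was lower by 1.96 in LIF+ and by 1.10 in LIF-, with a difference of 0.02 on RA, and Pls3, an actin-bundling protein, by 1.66, 0.50 and 0.03. Without the LIF+ pair the counts by sign were 15 lower and 3 higher. In the integrated clone 15 of the 24 fell (62.5%) and 0 rose, against 5.11% and 2.46% of genes with a symbol. Of 20 feeder and fibroblast markers 6 fell there too (30%) and 0 rose. The part of such cells in the actin counts of either clone was not tested.

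SRF binds a DNA element called the CArG box. The RefSeq promoter windows (GRCm38.p6, 250 bases before to 50 after a start) hold this box in 1.63% of 32851 windows, with both strands covered because the box reads alike on both. Of the 19 measured members of the actin list with a window, 6 hold it (31.6%), namely Acta1, Actc1, Fhl1, Myl9, Srf and Vcl. The list was made to hold SRF targets, so a high share was built in and is no result of these arrays. The units also differ, since 1.63% counts windows and 31.6% counts genes with a box in any window. The 250 bases before the start are printed for Vcl, which links actin to adhesions and was lower by 0.48, 0.44 and 0.24, for Srf itself (-0.59, -0.19 and -0.01) and for the skeletal actin Acta1 (-1.41, -0.60 and 0.00), with the box in capitals.
Vcl, chr14:20929148-20929397, + strand: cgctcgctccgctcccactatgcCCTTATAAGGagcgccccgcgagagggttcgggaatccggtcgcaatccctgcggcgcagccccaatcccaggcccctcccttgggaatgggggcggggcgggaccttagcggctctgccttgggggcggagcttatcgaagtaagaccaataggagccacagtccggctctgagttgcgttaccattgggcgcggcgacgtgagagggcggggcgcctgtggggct
Srf, chr17:46556163-46556412, - strand: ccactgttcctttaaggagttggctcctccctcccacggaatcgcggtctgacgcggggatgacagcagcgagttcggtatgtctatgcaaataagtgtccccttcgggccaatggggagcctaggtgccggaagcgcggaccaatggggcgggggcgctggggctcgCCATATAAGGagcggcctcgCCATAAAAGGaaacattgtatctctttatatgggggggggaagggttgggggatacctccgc
Acta1, chr8:123894776-123895025, - strand: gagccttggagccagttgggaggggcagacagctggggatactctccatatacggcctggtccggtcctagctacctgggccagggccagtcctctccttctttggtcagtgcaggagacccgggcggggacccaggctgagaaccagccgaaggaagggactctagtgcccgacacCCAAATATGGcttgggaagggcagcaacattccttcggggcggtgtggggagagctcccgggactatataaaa
The box begins 227 bases before the start in Vcl and 73 bases before it in Acta1, and Srf holds a pair of boxes. The window of Acta2 holds no match to these letters, and Actc1, with a box, differed by 1.0, 0.30 and -0.09. A match is a stretch of letters and was not measured as a binding site.

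The primitive endoderm list went the other way. Of its 22 measured members 9 were higher in the clone in 3 of 3 media (40.9%) and 2 lower (9.09%), and 5 were higher by at least 0.1 in each medium (22.7%), against 2.75% of genes with a symbol. The median difference was -0.07 in LIF+, 0.33 in LIF- and 0.41 in RA, so here the higher levels lay in LIF- and RA. Sox17, a transcription factor of endoderm, read 0.48, 1.72 and 3.09 in the clone and 0.32, 0.34 and 1.78 in MG1.19. Both lines had their highest Sox17 level on RA. Lama1, a laminin chain of the basement membrane that primitive endoderm lays down, was higher by 0.05, 1.82 and 0.42, and Col4a1, a collagen of the same membrane, by 0.05, 1.02 and 1.02. Pdgfra, a receptor of primitive endoderm, was higher by 0.29, 0.34 and 0.87, and Amn, the partner of cubilin, by 0.28, 0.46 and 0.39. Without the LIF+ pair 15 of the 22 were higher in both media (68.2%) and 2 lower. Members did not all go one way: Krt19 was lower by 0.14, 0.77 and 0.25, and Afp, a secreted protein of visceral endoderm, had differences of -0.24, 0.36 and -0.35. In the integrated clone 1 of the 22 rose (4.55%), Cubn, and 2 fell (9.09%), Krt19 and Serpinh1, with a median difference of 0.07. Of genes with a symbol 2.46% rose there and 5.11% fell. Summed Cy3 signals of 4 primitive endoderm markers (Sox17, Foxa2, Dab2 and Afp) were 2694 to 9341 in the clone and 2956 to 5611 in MG1.19, Afp staying at or below 472. These are raw signals, not normalized. On RA the Foxa2 signal was 5460 in the clone and 3510 in MG1.19, yet its differences in log2(Cy3/Cy5) were -0.10, 0.32 and 0.09.

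**Figure D4:**
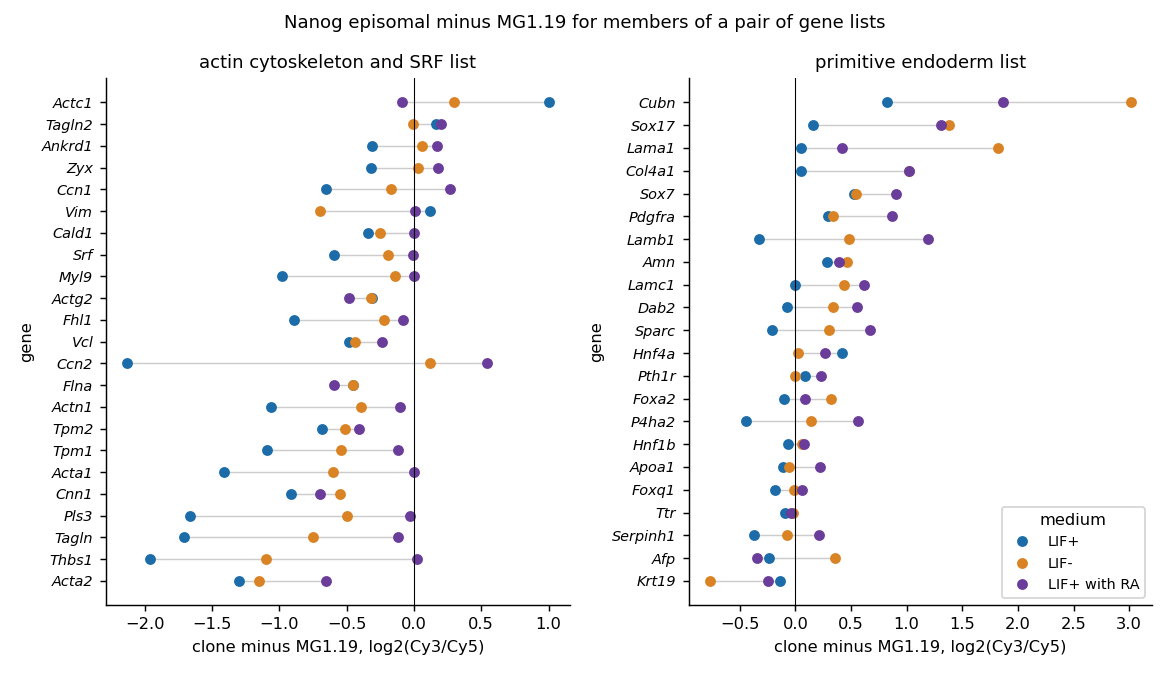
Difference, clone minus MG1.19 in log2(Cy3/Cy5), for measured members of the actin and SRF list (left, 23 of 24 genes shown) and of the primitive endoderm list (right, 22 genes), with 1 point per medium and a grey line over the range. In the left panel the LIF+ points lie farthest to the left for most genes and those of RA near 0. In the right panel the points of LIF- and RA lead to the right.

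Pluripotency genes were mixed. Of 29 measured members of the naive and core list, 7 were higher in 3 of 3 media (24.1%) and 4 lower (13.8%), and without the LIF+ pair 12 and 5. Pou5f1 read 2.81, 2.14 and 0.65 in the clone against 2.14, 2.87 and 0.82 in MG1.19, higher in LIF+ and lower in the other media. Sox2 was lower by 0.79, 0.06 and 0.35. Klf4, a direct target of LIF signaling, was higher by 0.29, 0.69 and 0.42, and Tbx3 by 0.74, 1.40 and 0.47. Both rose in the integrated clone, Klf4 by 1.39 and Tbx3 by 2.41 (limma, adjusted p = 0.0162 and 0.0158). Zfp42 differed by 0.00, 0.00 and -0.17, and Esrrb by -0.04, 0.15 and 0.16 on a probe whose levels stayed between -0.07 and 0.22. The Esrrb probe was faint, with Cy3 signals of 422 to 446 against backgrounds of 380 to 387, so its small differences say little. Fbxo15 was lower by 1.35 in LIF+, had a difference of 0.09 in LIF- and was lower by 0.55 in RA, while it rose by 1.41 in the integrated clone (limma, adjusted p = 0.0113). In the integrated clone 11 of the 29 rose (37.9%) and 1, Dppa3, fell (3.45%), against 2.46% and 5.11% of genes with a symbol.

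Among genes of differentiation, Sp5 and T lay apart in some media and not in others. Sp5, a target of WNT signaling, was lower by 1.85 in LIF+ and by 1.46 in LIF-, with a difference of 0.01 on RA, and fell by 3.05 in the integrated clone (limma, adjusted p = 0.00998). T, the mesoderm factor brachyury, had a difference of -1.15 in LIF- and of 0.01 and -0.04 elsewhere on its brightest probe. Its other probe differed by -0.73, -1.77 and 0.01, reading 3.04 in the clone and 4.81 in MG1.19 without LIF. Of the 18 members of the primitive streak and WNT list 5 were lower in 3 of 3 media and 1 higher, Cdx2 (1.39, 0.10 and 0.34), whose second probe differed by -0.10, 0.23 and -0.04. The study's methods call their Cdx2 array probe unresponsive and use PCR values in its place. In the late arrays a probe with the sequence of the first read -1.07, -0.78 and -0.95 at 0 hr and -0.77, -0.73 and -0.83 at 120 hr. In LIF- and RA alone, 9 of the 18 were lower and 4 higher. Wnt3 was lower by 0.54, 0.92 and 0.04, and Wnt8a by 0.08, 1.06 and 0.07. Fgf5, an epiblast growth factor that was 3.07 in the clone and 3.29 in MG1.19 without LIF, was lower by 0.44, 0.23 and 0.31 on its brightest probe and differed by 0.01, -0.03 and 0.02 on the other. That other probe was faint, with Cy3 signals of 424 to 486 against backgrounds of 380 to 387, so its small differences say little. Of 23 genes of nodal, activin and BMP signaling 0 were higher in 3 of 3 media and 5 lower, and without the LIF+ pair 4 and 5. Lefty1, a nodal antagonist, was lower by 2.60 in LIF+ and by 0.28 and 0.63 in the others, and Lefty2 by 0.49, 0.62 and 0.31. Fst was lower by 1.28 and 1.11 in LIF+ and LIF- but higher by 0.76 on RA. Id3, a target of BMP, had differences of -1.12, 0.72 and 0.29.

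The other lists gave these counts, by sign in 3 of 3 media. Among 21 imprinted genes 11 were lower in 3 of 3 media (52.4%) and 1 higher, with Grb10 (-0.83, -0.33 and -0.24), Peg12 (-0.53, -0.50 and -0.19), Dcn (-0.52, -0.04 and -0.72) and Igf2r (-0.80, -0.03 and -0.14) the farthest, though 4 of the 21 were lower by 0.1 or more in each medium. Leaving out the LIF+ pair, 11 imprinted genes were lower and 3 higher. Among 20 markers of feeder and fibroblast cells 8 were lower (40%) and 0 higher, but without the LIF+ pair 10 were lower (50%) and 6 higher (30%), and 1 was lower by at least 0.1 in each medium. Fn1 was lower by 0.91, 0.26 and 0.09 and Twist1 by 0.36, 0.18 and 0.63. Of the 20 markers 6 fell in the integrated clone (30%) and 0 rose, against 5.11% and 2.46% of genes with a symbol, with a median difference of -0.68. Summed Cy3 signals of the 7 feeder fibroblast markers with a probe were 4657 to 7154 in the clone and 5001 to 7833 in MG1.19, with Col1a1 at or above 1070 and Postn at or below 484 on every array; their part in the actin counts was not tested. Among 19 genes of p53 and stress 7 were higher and 2 lower (10 and 3 without the LIF+ pair), with Ddit3 (0.11 in both LIF- and RA, and above 1 in LIF+), Phlda3 (0.11, 0.42 and 0.62), Mdm2 (0.51, 0.44 and 0.18) and Gadd45b (-0.86, -0.59 and 0.10) the farthest. In the germline list of 19 genes 5 were lower and 4 higher (6 and 8 without the LIF+ pair), and the homeobox genes Rhox9 (-1.58, -0.44 and -1.16) and Rhox6 (-1.20, -0.06 and -1.32) with Ifitm1 (-1.25, -0.21 and -0.72) had the largest differences. Taf7l was higher by 1.02, 0.54 and 0.10. In 16 trophectoderm genes 4 were lower and 1 higher (5 and 1 without the LIF+ pair), with Tfap2c lower by 1.80, 0.46 and 0.93.

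The remaining 5 lists were mixed. Of 22 genes of FGF and ERK signaling 4 were lower and 2 higher (5 and 5 without the LIF+ pair), with the immediate early gene Egr1 lower by 0.53, 1.12 and 0.46 and the phosphatase Dusp9 higher by 0.46, 0.83 and 0.40. Of 18 genes of LIF and STAT3 signaling 3 were lower and 4 higher (6 and 6 without that pair), Socs2 being lower by 0.56, 0.41 and 0.11 and Klf5 higher by 0.28, 0.21 and 0.59. Of 18 genes of the RA response 1 was lower and 2 higher (3 and 5), with Stra8 higher by 0.25, 0.82 and 0.36 and Meis1 lower by 0.63, 0.22 and 0.17. Of 21 epiblast and early neural genes 4 were lower and 2 higher (5 and 6), with Cdh2, N-cadherin, lower by 0.76, 0.55 and 0.39. Of 22 chromatin genes 4 were lower and 4 higher (4 and 9), with Rnf2 higher by 0.39, 0.37 and 0.28 and Kdm4c lower by 0.88, 0.15 and 0.14. No member of any list was called in the episomal clone by the paired fit.

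**Figure D5:**
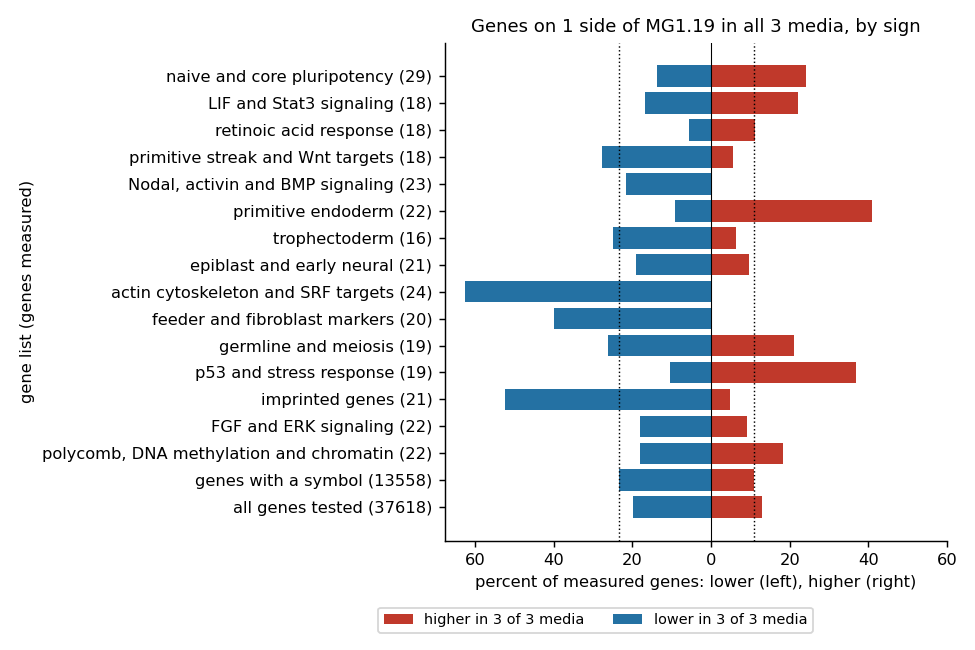
Percent of the measured genes of each list that were higher (red, to the right) or lower (blue, to the left) in the clone in 3 of 3 media by sign. Dotted lines mark the shares of genes with a symbol, 11% higher and 23.5% lower; the actin and SRF list reached 62.5% lower and the primitive endoderm list 40.9% higher.

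The genes farthest apart in a single medium, picked after their values were seen, were mostly not the same between media. In LIF+ the highest differences of genes with a symbol were those of Tnfrsf10b (2.23), Slfn3 (2.13), Gatad1 (2.09) and Atp9b (2.07), which were 0.07 to 0.50 in the other media. Many probes without a symbol had a like pattern, so these genes may not be separate cases. A further probe of the Slfn3 transcript, counted without a symbol, differed by 1.73 in LIF+, 0.20 in LIF- and 0.49 in RA. The lowest in LIF+ after Dppa3 that read above the dim limit on all 6 arrays were Nrp2 (-3.25) and Lefty1 (-2.60). In LIF- the highest were Cubn (3.02), Srgn (2.33), Spink1 (2.24) and Lama1 (1.82), and Spink1 was lower by 2.08 in LIF+. In RA the highest were Srgn (2.45), Glipr1 (2.30), Cubn (1.87) and Sox17 (1.31). The lowest in RA included Rhox6 (-1.32) and Xlr4b (-1.27), a gene of an X-linked family, which rose by 1.97 in the integrated clone (limma, adjusted p = 0.0103).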

How the data were processed

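Two-color NIA mouse oligonucleotide arrays of 6 samples were compared, with 6 arrays of the integrated clone and ES 129.3 and 18 late arrays as further readouts. The authors deposited Agilent Feature Extraction 7.5 output with mean spot signals, local background and processed signals in intensity units. They also deposited normalized values in log10 units at the level of Cy3 intensity; 1 column as deposited was treated as score values, since it codes 10 cells as missing. Here background was corrected by normexp (offset 50), dyes were balanced by loess within arrays, spots called outliers were left out, saturated spots kept, and spots of a probe averaged as log2(Cy3/Cy5), with limma 3.58.1, R 4.3.3 and data.table (version 1.17.8). Dyes were not swapped, so dye bias drops out only of differences between arrays. Probes were named by RefSeq accession (15294) or through an identical probe sequence elsewhere in the study (1582 probes); 24130 of 41006 have no symbol here, Gata4 and Gata6 among those list members without a named probe.

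Pairs of the same medium were fitted with the medium as a block (lmFit, eBayes, two-sided, Benjamini-Hochberg over all probes; threshold adjusted p 0.05 and 1.5-fold). No line and medium has a replicate array, so the spread is that between media, and p-values rest on 3 pairs of 1 clone. The members and the gene lists were chosen with earlier results of these data known. Named are all Nanog probes, the genes moved in all 3 media, up to 4 members per list by mean absolute difference, 13 fixed genes (no probe named Gata6 was found), those next to the limit and those farthest between clones; genes named outside this rule (such as Amn, Afp, Vcl, Actc1, Srgn, Nrp2 and those farthest in 1 medium) were picked after their values were seen. In simulated data over 40899 probes, the rule of 1.5-fold in 3 media found 90 of 100 changed by 1 and 99 of 100 changed by 2 on the log2 scale, with 49 unchanged probes, and limma called 42 and 80. In the data only 11 of 37618 genes met the rule, fewer than those 49. The simulation thus did not match the data, and its rates need not hold for them. Genes are left out where a value is missing on any of the 6 arrays (97 of 37715). A few genes that the rule names are not reported here.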

Additional observations from a re-analysis of the deposited data

Results flagged for a closer look

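The clones lay apart for 2 of the 11 genes. For Acta2 the episomal difference minus the integrated difference was 2.04 on the log2 scale, with the clone lower than its comparison line in 6 of 6 pairs. For CA881129 it was -0.75, with differences of -0.72, -0.99 and -0.77 in the episomal and -0.13, -0.03 and -0.05 in the integrated pairs. Both met the threshold in the limma fit over 12 arrays, but the episomal values that enter it also chose the genes, so the fit is no support for a difference between the clones and no p is given.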

How the results depend on the processing

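The paired fit gave 0 called genes in the episomal clone under every alternative with all 3 pairs and 0 to 1 when a pair was left out (Srgn, without LIF+). Processed signals and the authors' normalized values each gave 8 higher and 17 lower genes in all 3 media, and Cy3 alone gave 16 lower ones. The 2-fold limit left 0 and 0, and the rule of 1 sign with a mean of 1.5-fold, chosen after seeing the data, gave 155 and 153. All 3 higher genes and 6 to 8 of the 8 lower ones were kept under every alternative at 1.5-fold. With 1 pair left out, 11 to 25 higher and 41 to 68 lower genes met the rule in the remaining media, and the integrated clone gave 428 to 1774 called genes, 3 to 6 of the 11 among them. The actin list had 15 lower genes, and the primitive endoderm list 15 higher, without the LIF+ pair. Mean differences near 0 turned sign: Cyp26a1 to -0.02 with processed signals and with the authors' values (-0.13 to 0.13 with a pair left out), Pou5f1 to 0.21 with Cy3 alone and 0.04 with the median of its probes (-0.45 to 0.25), Zfp42 to 0.07 with Cy3 alone (-0.08 to 0), and Id3 to 0.06 with Cy3 alone (-0.42 to 0.50). With Cy3 alone the Cyp26a1 mean was 0.66, above the 1.5-fold limit, against 0.03 in the main processing. The cause of these shifts was not tested. In the late arrays 3 to 4 of the 11 genes were called with a replicate left out and 4 with a replicate block; same-numbered arrays at 0 and 120 hr had residual correlations of 0.23, -0.41 and 0.36, so the numbers were not taken as pairs. All 6 arrays were read by the scanner software on the same day, so a scan block could not be fitted. The authors' differences lay within 0.05 of those of the processed signals for at least 98.7% of probes.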

Other observations

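Genes with a symbol were placed by the GRCm38.p6 gene table, and the X chromosome had the largest share of genes lower in the clone in 3 of 3 media. Of 494 measured X-linked genes 156 were lower in 3 of 3 media by sign (31.6%) and 29 higher (5.87%), against 23.5% and 11% of all 13339 genes placed on a chromosome. With a mean of at least 1.5-fold lower, there were 15 X-linked genes (3.04%) against 101 of all (0.757%). Rhox6, Rhox9, Xlr4b, Hs6st2 and Pls3 are X-linked. The median difference of X-linked genes was -0.173 in LIF+, -0.033 in LIF- and -0.017 in RA, against -0.106, -0.006 and 0 for all placed genes, and -0.088, -0.069 and -0.050 in the integrated clone, where those of all placed genes were -0.023, -0.017 and 0.004. Both lines are labelled male. Chromosome 12 followed, with 29.8% lower in 3 of 3 media and a median of -0.163 in LIF+, close to that of X. Chromosome 14 had 27% lower, with medians of -0.024 in LIF- and -0.029 in RA, the latter below that of X. The comparison was made after the values were seen and carries no test.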
